A study of Mus musculus with 10 samples.

Results

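TNF and NF-kB pathway genes were read as a set of 35 genes out of the 12535 in the deposited table, all matched by gene symbol. They were split by textbook role into 17 signalling components (receptors, adaptors, kinases, the subunit gene Rela and the inhibitors Nfkbib and Cyld) and 18 induced or feedback genes, which NF-kB is known to switch on. The libraries came from mouse cells sorted as CD45+, CD11b+ and F4/80+, the surface markers of leukocytes, myeloid cells and macrophages. Tumour-associated macrophages (TAM) were taken 14 days after KPC pancreatic cancer organoid cells of the line MT4 had been implanted into the pancreas. One tumour group (cKO-labelled TAM, n = 3) carried C57/BL6 Ahr fl/fl with Lys M, in which Cre recombinase, driven by the lysozyme gene Lyz2 of myeloid cells, is designed to remove the floxed part of Ahr, the aryl hydrocarbon receptor gene. The other (control TAM, n = 3) carried C57/BL6 Ahr fl/fl alone, and resident macrophages (n = 4) came from the healthy pancreas of C57/BL6 WT mice. Control TAM and resident macrophages thus differ in the floxed allele as well as in the tumour. The tumour groups differ in the presence of Cre as well as in its targeting of Ahr, and no group carries Cre alone. Between cKO-labelled TAM and resident macrophages the Cre, the floxed allele and the tumour all differ. Sex and age are not given in the labels used here, and Cre driven by Lyz2 is active in neutrophils too.

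TNF binds its receptors on the cell surface, and the adaptors and ubiquitin ligases gathered there activate the IkB kinase complex. That complex marks the inhibitors of NF-kB for destruction, so that Rel-family dimers enter the nucleus. Toll-like and interleukin-1 receptors reach the same kinase through Myd88 and Traf6, and a slower branch runs through the kinase encoded by Map3k14 and the processing of the Nfkb2 product. Among the genes NF-kB induces are its own brakes, such as the inhibitor gene Nfkbia and the ubiquitin-editing enzyme gene Tnfaip3, as well as genes for adhesion, antioxidant defence and survival. In macrophages this loop is one of the main controls of inflammatory gene expression.

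The letters upstream of 5 of these genes are shown because they carry, or in one case lack, the NF-kB consensus motif, and because their mRNA levels took different courses across the groups. Each line holds the 250 bases before a RefSeq start site (GRCm38.p6), 5′ to 3′ on the gene's own strand. Capitals mark letters that match the consensus GGGRNNYYCC on either strand, and overlapping matches run together. In it R is A or G, Y is C or T and N is any base. The windows are chr12:55492648-55492897 (minus strand) for Nfkbia, chr10:19015411-19015660 (minus) for Tnfaip3, chr17:35821463-35821712 (plus) for Ier3, chr19:46304487-46304736 (plus, the first of 3 annotated starts) for Nfkb2 and chr7:19822756-19823005 (minus) for Bcl3.
Nfkbia: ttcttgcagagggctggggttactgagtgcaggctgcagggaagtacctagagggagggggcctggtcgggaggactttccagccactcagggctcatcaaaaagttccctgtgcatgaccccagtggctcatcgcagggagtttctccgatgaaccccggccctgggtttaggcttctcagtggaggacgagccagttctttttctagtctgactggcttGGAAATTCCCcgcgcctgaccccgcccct
Tnfaip3: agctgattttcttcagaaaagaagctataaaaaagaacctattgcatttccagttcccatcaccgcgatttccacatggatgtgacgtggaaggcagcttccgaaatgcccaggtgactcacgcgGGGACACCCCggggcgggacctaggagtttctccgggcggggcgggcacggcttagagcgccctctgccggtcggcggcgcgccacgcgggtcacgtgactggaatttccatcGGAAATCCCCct
Ier3: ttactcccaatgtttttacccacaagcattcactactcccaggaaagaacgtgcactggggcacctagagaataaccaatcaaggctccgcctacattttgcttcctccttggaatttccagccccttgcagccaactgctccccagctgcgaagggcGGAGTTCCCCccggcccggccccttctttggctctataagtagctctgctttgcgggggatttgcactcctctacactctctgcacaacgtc
Nfkb2: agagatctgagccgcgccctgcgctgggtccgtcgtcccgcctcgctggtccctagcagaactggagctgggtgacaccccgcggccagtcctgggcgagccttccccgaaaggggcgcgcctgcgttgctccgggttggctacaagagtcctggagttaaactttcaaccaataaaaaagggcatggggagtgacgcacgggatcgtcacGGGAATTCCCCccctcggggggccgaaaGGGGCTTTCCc
Bcl3: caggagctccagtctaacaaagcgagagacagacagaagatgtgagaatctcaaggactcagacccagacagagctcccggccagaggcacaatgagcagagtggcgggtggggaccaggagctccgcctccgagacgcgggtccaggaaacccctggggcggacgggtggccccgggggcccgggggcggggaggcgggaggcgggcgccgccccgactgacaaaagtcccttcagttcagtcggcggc

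The Nfkbia window held 1 match, GGAAATTCCC, which ended 19 bases before the start site. The Tnfaip3 window held 2, with GGAAATCCCC ending 2 bases before the start site. Ier3 held GGAGTTCCCC, 82 bases before its start. At the first Nfkb2 start, 3 matches were found, of which 2 overlap, and the Bcl3 window held none. Among windows not shown, those of Icam1, Tnf, Traf1 and Birc3 held none either, and those of Tnfaip2 and Sod2 held 1 each. The Tnfaip3 window shown is the upstream one of its 2 starts, and the other held none. A RefSeq window was found for 30 of the 35 genes. The motif stood in 9 of 15 induced or feedback genes and in 3 of 15 signalling components, where 8.23% of 27025 genes with a window held it at any of their starts. The induced class was drawn from known NF-kB targets, so this count describes the class and does not test it. The core letters of the site that the aryl hydrocarbon receptor binds, GCGTG on either strand, stood in 8 of 15 induced or feedback genes, in 9 of 15 signalling components and in 30.9% of all genes with a window. Neither count says whether a factor binds there. Both backgrounds take in every gene with a window, expressed in these cells or not, whereas all 35 genes were expressed. Whether either motif is more common than in other expressed genes was not tested.

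The values are FPKM, read fragments corrected for gene length and for library size. How the gene lengths were set is not stated, so levels of different genes, and their sums, can be set side by side only roughly. Whole reads recovered from the low values put the depth at 17078608 to 26454739 reads in cKO-labelled TAM, 10312810 to 15337090 in control TAM and 12051326 to 16739570 in resident macrophages, so the cKO-labelled libraries were the deepest. All 35 genes passed the filter on low values (FPKM of at least 1 in at least 3 libraries), and the thinnest, Tnf, rested on 44 to 352 recovered reads. Libraries of one group lay close together: the median coefficient of variation of the 35 genes was 3.21% in cKO-labelled TAM, 3.66% in control TAM and 4.83% in resident macrophages. Myd88, Nfkb2, Nfkbib, Bcl3, Ikbkg, Ripk1, Tnfaip2, Icam1, Map3k14 and Irak1 share exon bases with another annotated gene. Map3k14 and Irak1 do so with a gene of the same strand and the rest with a gene of the opposite strand (Ripk1 with both), which these libraries do not record, so reads there cannot be told apart. The labels name a pair of RNA extraction kits without saying which library used which, and the part of the kit in the results was not tested. Fits were made with limma on log2(FPKM + 1), and log2 changes below are on that scale with their SE. The series design counts mice, but the labels tie no library to a mouse, so p-values speak for the spread among these libraries. Ahr itself, the targeted gene, stood at 10.2, 11.2 and 9.65 FPKM in cKO-labelled TAM, 7.11, 6.91 and 7.51 in control TAM and 3.84, 4.46, 4.29 and 4.16 in resident macrophages. It was thus not lower in the libraries labelled cKO. One FPKM value per gene covers every exon, those outside the floxed part included, so it does not check the deletion.

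Markers of the sorted cells and of other cells differed between the groups. The F4/80 gene Adgre1 stood at 497 ± 7.72, 589.8 ± 2.78 and 706 ± 14.9 FPKM and the CD45 gene Ptprc at 84.2 ± 2.87, 103 ± 3.18 and 69.0 ± 3.31 FPKM in cKO-labelled TAM, control TAM and resident macrophages (SD). The CD11b gene Itgam stood at 59.7 ± 3.32, 75.9 ± 5.23 and 31.4 ± 0.995 FPKM. Lyz2, the lysozyme gene that drives the Cre, stood at 11459.7 ± 203, 19904 ± 85.1 and 28140.4 ± 477 FPKM and the complement gene C1qb at 5708 ± 96.3, 4733 ± 83.5 and 7777 ± 296, in the same order. Only cKO-labelled TAM carry the Cre driven by Lyz2, so in the level of this gene genotype and cell content cannot be told apart. The 14 macrophage markers summed to 25824 to 26222, 32721 to 32913 and 48219 to 49414 FPKM in that order of groups, but without Lyz2 to 14319.5 to 14705, 12791 to 13103 and 20435 to 21731. In cKO-labelled against control TAM 4 of them rose and 7 fell, and in control TAM against resident macrophages 5 rose and 9 fell. The 15 acinar enzyme genes summed to 375 to 389, 99.4 to 108 and 29997 to 31995 FPKM. In the same order, 11 neutrophil genes summed to 1630.1 to 1792, 1292 to 1318 and 359.9 to 369 FPKM, 6 eosinophil genes to 1498 to 1521, 1457 to 1495 and 185 to 194, and 6 B cell genes to 243 to 245, 87.4 to 95.9 and 899 to 917. Single genes carry some of these sums: without Retnlg the neutrophil sums were 292 to 301, 139 to 149.8 and 359 to 369 FPKM, and without Alox15 the eosinophil sums were 132 to 133, 88.7 to 91.7 and 45.7 to 59.5. Resident macrophages thus had the highest neutrophil sum once Retnlg was left out, but Mmp9 alone made up most of that resident sum. Likewise 9 epithelial genes summed to 276 to 289.7, 272 to 279 and 9.55 to 11.2 FPKM (without Krt18, 173 to 177, 179 to 187 and 6.47 to 7.27), 9 fibroblast genes to 130.0 to 134, 166 to 170.2 and 38.5 to 42.2, and 7 dendritic cell genes to 199 to 203, 59.6 to 66.8 and 393 to 402. The 12 T and NK cell genes summed to 26.7 to 28.8, 20.1 to 23.4 and 31.2 to 33.7 FPKM (without Cd2, 24.5 to 26.3, 18.1 to 21.6 and 10.4 to 11.0) and the 6 endothelial genes to 16.0 to 16.9, 8.78 to 9.08 and 3.16 to 3.87. The acinar amylase gene Amy2a5 was listed at 0 in every control TAM library and the eosinophil gene Prg2 at 0 in every resident library. The acinar list rose in cKO-labelled against control TAM (14 of 14 tested genes, 0 lower) and fell in control TAM against resident macrophages (14 of 14), while of 10 neutrophil genes tested 7 rose and 1 fell in the first of these contrasts and 8 rose and 1 fell in the second. Of 6 eosinophil genes 4 rose and 0 fell in cKO-labelled against control TAM, and 5 rose and 1 fell in control TAM against resident macrophages. The pancreatic protease gene Prss2 stood at 79.0 ± 1.45, 22.1 ± 1.26 and 4131 ± 56.1 FPKM and Cela2a at 45.5 ± 0.954, 10.8 ± 0.543 and 6034 ± 298. Of the neutrophil list, Retnlg stood at 1420.3 ± 78.1, 1166 ± 14.9 and 0.332 ± 0.245 FPKM, and Mmp9 at 123 ± 4.28, 41.5 ± 0.324 and 329 ± 3.73. S100a8 of that list stood at 48.6 ± 3.18, 25.0 ± 0.887 and 0.675 ± 0.220 FPKM and S100a9 at 57.0 ± 3.44, 25.4 ± 3.21 and 0.0320 ± 0.0641. Retnlg thus did not stand for the level of the whole list. The part of these cell types in the results below was not tested, and in sorted bulk samples fewer cells of a type and less RNA per cell cannot be told apart.

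**Figure D1:**
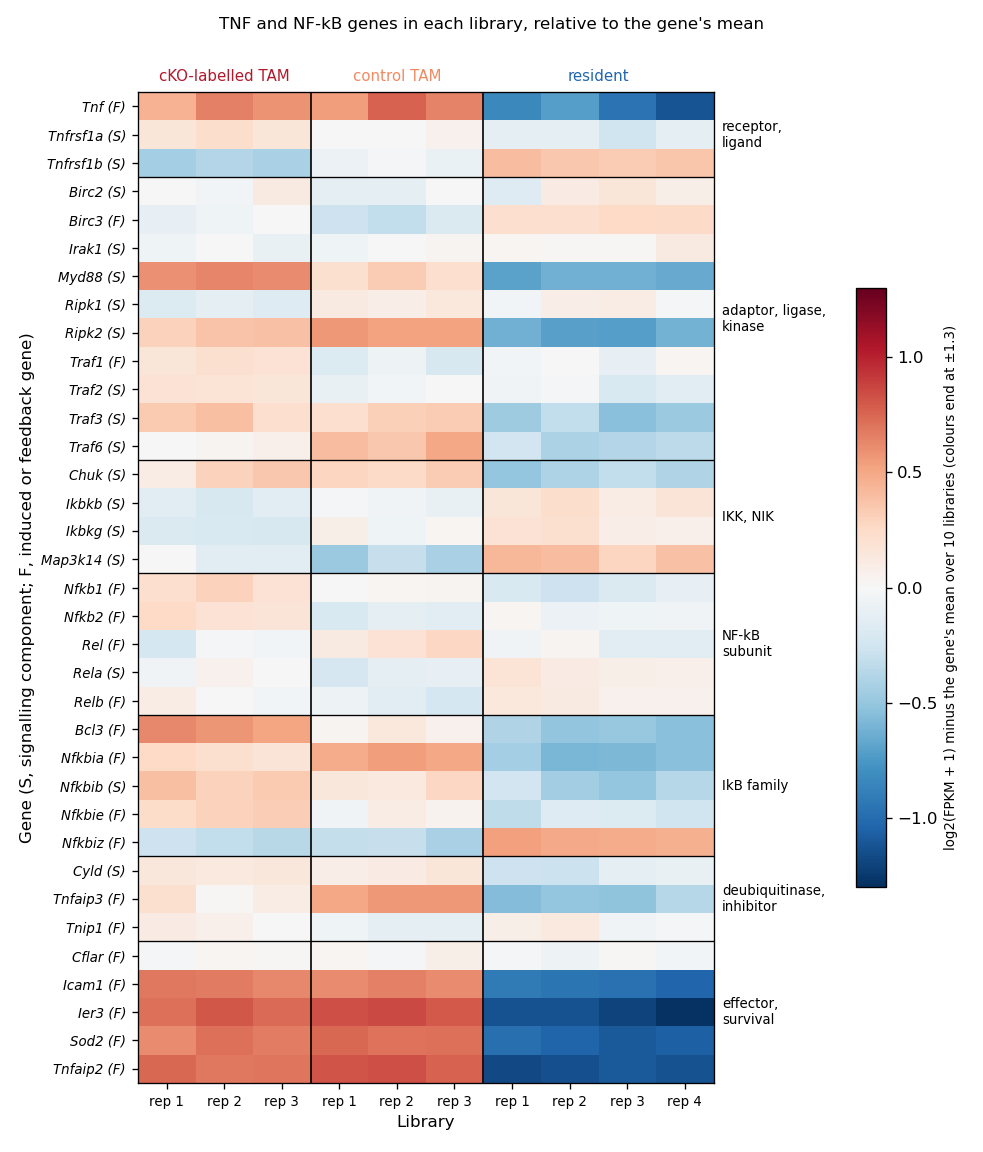
Level of each of the 35 genes (rows, grouped by role) in each of the 10 libraries (columns, cKO-labelled TAM, control TAM, then resident), as log2(FPKM + 1) minus the gene's mean over the libraries. Red is above and blue below that mean. The effector genes Icam1, Ier3, Sod2 and Tnfaip2 are red in all 6 tumour libraries, while Bcl3 and Myd88 are most strongly red in cKO-labelled TAM and Nfkbia and Tnfaip3 in control TAM.

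The first comparison asked how tumour macrophages without Cre differ from those of the healthy pancreas. In control TAM 7 of the 18 induced or feedback genes, among them Ier3, Icam1, Tnf and Nfkbia, stood at 2.07 to 4.11 times their resident level. The TNF receptor genes, the 4 IKK and NIK kinase genes and the 5 subunit genes shifted by smaller steps in both directions, with log2 changes of -0.78 to 0.69. This is not a split by class, since the subunit genes other than Rela are counted among the induced or feedback genes. Of the 10 adaptors, ubiquitin ligases and kinases of the receptor complexes, 4 rose and 1 fell, with changes of 1.20 for Ripk2 and 0.90 for Myd88. The summed level of the 18 induced or feedback genes was 1239.6 to 1279 FPKM in cKO-labelled TAM, 1301 to 1340.3 in control TAM and 671 to 705 in resident macrophages, while that of the 17 signalling components was 668 to 687, 647 to 664 and 605 to 629. A few abundant genes carry much of the first sum. In the same order of groups, Nfkbia averaged 396, 489 and 236 FPKM, Ier3 170.4, 179 and 43.5, and Icam1 164, 161 and 52.3. The sum thus says little about the other genes of the class. Of the 18 induced or feedback genes, 11 rose and 5 fell, with a median log2 change of 0.27, and 7 of them changed by at least 2-fold (a log2 change of at least 1). Of the 17 signalling components, 8 rose and 4 fell, with a median of 0.08, and 1 changed by at least 2-fold. Traf3 (0.74, with means 2.22-fold apart) also passed that limit at a pseudocount of 0.1 (1.09) and by voom (1.16), and Myd88 on rescaling (1.11). Over all 11127 genes tested, 77.1% passed the threshold (adjusted p under 0.05), 16.9% with a change of at least 2-fold, and the median change was 0.00. The share of the 35 genes that passed, 28 or 80.0%, is thus near that of all genes. When each library was rescaled to a common FPKM total, the median of all genes moved up by 0.18, and the split of the 35 genes, 19 higher and 9 lower, became 24 higher and 4 lower, with medians of 0.44 in the induced or feedback genes and 0.28 in the signalling components.

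The effector genes changed most. Ier3, an early-response survival gene (ENSMUSG00000003541, GRCm38 chromosome 17, 35821684 to 35822923, plus strand), stood at 179.7, 183 and 175 FPKM in control TAM, against 45.3, 45.2, 43.1 and 40.5 in resident macrophages. The groups were 4.11-fold apart (log2 change 2.02 ± 0.04, limma adjusted p = 2.39e-16). Tnfaip2, a TNF-induced cytoplasmic protein gene, stood at 105, 106 and 101 FPKM in control TAM, against 25.6, 26.1, 27.2 and 26.3 in resident macrophages, and rose 3.95-fold (1.94 ± 0.04). Sod2, the mitochondrial superoxide dismutase gene, stood at 76.5, 74.3 and 74.9 FPKM in control TAM, against 22.5, 21.5, 20.7 and 21.2 in resident macrophages, and rose 3.51-fold (1.76 ± 0.04). In all 3 of these genes every control TAM library lay far above every resident library. The groups did not overlap in 28 of the 35 genes, against 73.9% of all genes tested. Icam1, the adhesion molecule gene to which leukocyte integrins bind, stood at 159, 164 and 159 FPKM in control TAM, against 54.2, 52.9, 52.2 and 50.1 in resident macrophages (3.07-fold, 1.60 ± 0.03). Cflar, the caspase inhibitor that protects cells from TNF-induced death, was the exception in this role, at 10.4 ± 0.400 FPKM in control TAM and 10.0 ± 0.259 in resident macrophages (adjusted p = 0.372), though it passed as higher on rescaling (0.25).

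The ligand gene rose as well, at a low level. Tnf (ENSMUSG00000024401, chromosome 17, 35199381 to 35202007, minus strand) stood at 8.11, 9.64 and 8.82 FPKM in control TAM, against 2.50, 2.82, 2.22 and 1.87 in resident macrophages. That is a 3.77-fold difference of the means (log2 change 1.56 ± 0.09, adjusted p = 2.58e-10), with the widest scatter between libraries of any member in both of these groups (coefficients of variation of 8.68% and 17.2%) and no overlap between them. Its receptor genes moved by less and in opposite directions. Tnfrsf1a, which encodes the death domain receptor found on most cells, rose to 118 ± 2.71 FPKM in control TAM, against 104 ± 4.95 in resident macrophages (0.18 ± 0.04). Tnfrsf1b, the receptor gene more restricted to blood and endothelial cells, fell to 115, 119.7 and 114 FPKM in control TAM, against 161, 155, 153 and 156 in resident macrophages (-0.42 ± 0.03, adjusted p = 4.37e-09). On rescaling the change of Tnfrsf1b was -0.21 and that of Tnfrsf1a 0.39.

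Within the induced and feedback genes the IkB family and the inhibitors were divided. Nfkbia (ENSMUSG00000021025, chromosome 12, 55489410 to 55492647, minus strand), whose product holds NF-kB dimers in the cytoplasm, was the most abundant of the 35 genes in each group. It stood at 480.5, 500.2 and 485 FPKM in control TAM, against 252, 227, 229 and 235 in resident macrophages, a 2.07-fold rise (1.05 ± 0.04, adjusted p = 2.26e-13). Tnfaip3 (ENSMUSG00000019850, chromosome 10, 19000910 to 19015657, minus strand), which encodes a ubiquitin-editing enzyme that ends receptor signalling, stood at 19.9, 20.8 and 20.7 FPKM in control TAM, against 8.95, 9.41, 9.27 and 10.4 in resident macrophages (2.15-fold, 1.03 ± 0.06). Both of these brake genes were above every resident library in every control TAM library. Bcl3, an atypical nuclear IkB protein gene, rose to 64.2, 68.9 and 64.9 FPKM in control TAM, against 47.5, 43.4, 44.3 and 42.5 in resident macrophages (0.56 ± 0.04), and the inhibitor gene Nfkbie to 37.2 ± 1.91, against 30.8 ± 1.68. Nfkbiz, the other atypical nuclear member, fell to 18.6 ± 0.929 FPKM in control TAM, against 34.0 ± 0.777 in resident macrophages (-0.84 ± 0.05, adjusted p = 9.50e-11). Among the members less tied to induction, the inhibitor gene Nfkbib rose 1.51-fold and the deubiquitinase gene Cyld 1.29-fold. Birc3, an inhibitor of apoptosis that ubiquitinates receptor-bound proteins, fell to 39.9 ± 1.85 FPKM in control TAM, against 56.8 ± 0.869 in resident macrophages. Tnip1, a partner of the Tnfaip3 product, stood at 17.9 ± 0.544 and 19.7 ± 1.18 FPKM in these groups (-0.13 ± 0.05, adjusted p = 0.0360), a call lost without resident replicate 1 or 2 or control TAM replicate 2 or 3, and its change was 0.07 (adjusted p = 0.209) after rescaling. Rescaling also moved Birc3 to -0.29 from -0.50, and gave changes of 0.47 for Nfkbie and 0.49 for Cyld, where the unscaled ones were 0.26 and 0.31.

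Ripk2, Myd88, Traf6 and Traf3 had the largest rises among the signalling components. Ripk2, the kinase downstream of the NOD receptors, stood at 29.6, 28.7 and 28.8 FPKM in control TAM, against 12.4, 11.7, 11.6 and 12.5 in resident macrophages (2.41-fold, 1.20 ± 0.05, adjusted p = 8.91e-13). Myd88, the adaptor of Toll-like and interleukin-1 receptors, stood at 100.4, 109 and 101 FPKM in control TAM, against 53.3, 55.8, 56.0 and 54.7 in resident macrophages (1.88-fold, 0.90 ± 0.04). Traf6, the ubiquitin ligase that acts below it, stood at 8.16, 7.88 and 8.84 FPKM in control TAM, against 4.85, 4.23, 4.34 and 4.49 in resident macrophages (0.76 ± 0.06), and Traf3, which holds the slower branch in check, rose to 2.72 ± 0.148 FPKM, against 1.23 ± 0.149 (0.74 ± 0.08). None of these groups overlapped. Of the adaptors, ligases and kinases of the TNF and other receptor complexes, 5 did not pass the threshold. Ripk1, Traf2, Birc2, Irak1 and the induced adaptor gene Traf1 had changes of 0.08, 0.07, -0.12, -0.05 and -0.12. Traf1 stood at 9.68, 10.5 and 9.48 FPKM in control TAM, against 10.8, 11.1, 10.2 and 11.3 in resident macrophages. After rescaling, Ripk1 (0.28), Traf2 (0.27) and Irak1 (0.16, adjusted p = 0.00195) did pass as higher.

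Genes of the kinase complex and the subunits split. Chuk, one catalytic subunit gene, rose to 19.3 ± 0.569 FPKM in control TAM, against 11.6 ± 0.664 in resident macrophages (0.69 ± 0.06), while Ikbkb, the other, fell to 43.4 ± 1.14, against 50.7 ± 1.99 (-0.22 ± 0.04, and -0.01 after rescaling). The regulatory subunit gene Ikbkg stood at 6.63 ± 0.336 and 7.32 ± 0.397 FPKM (adjusted p = 0.0818). Map3k14, the kinase gene of the slower branch, fell to 5.09, 5.91 and 5.36 FPKM in control TAM, against 10.5, 10.3, 9.39 and 10.1 in resident macrophages (-0.78 ± 0.07, adjusted p = 2.10e-08). Every control TAM library lay below every resident one. Rela, the main activating subunit gene, fell to 64.6, 68.8 and 69.9 FPKM in control TAM, against 85.1, 81.0, 79.4 and 78.9 in resident macrophages (-0.26 ± 0.04), a call lost on rescaling (-0.05). Nfkb1, the gene of its usual partner, rose to 16.0, 16.2 and 16.3 FPKM in control TAM, against 13.7, 13.0, 13.8 and 14.7 in resident macrophages (0.21 ± 0.05, adjusted p = 0.00128, and 0.41 on rescaling). Rel rose (0.27 ± 0.08, and 0.41 on rescaling and by voom), Relb fell (-0.24 ± 0.05, and -0.03 with the call lost on rescaling), and Nfkb2 fell to 35.4, 37.3 and 36.9 FPKM in control TAM, against 41.3, 38.4, 39.0 and 39.4 in resident macrophages. Its change of -0.11 ± 0.04 (adjusted p = 0.0214) became 0.10 (adjusted p = 0.0413) on rescaling and lost its call without resident replicate 1 or control TAM replicate 1.

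**Figure D2:**
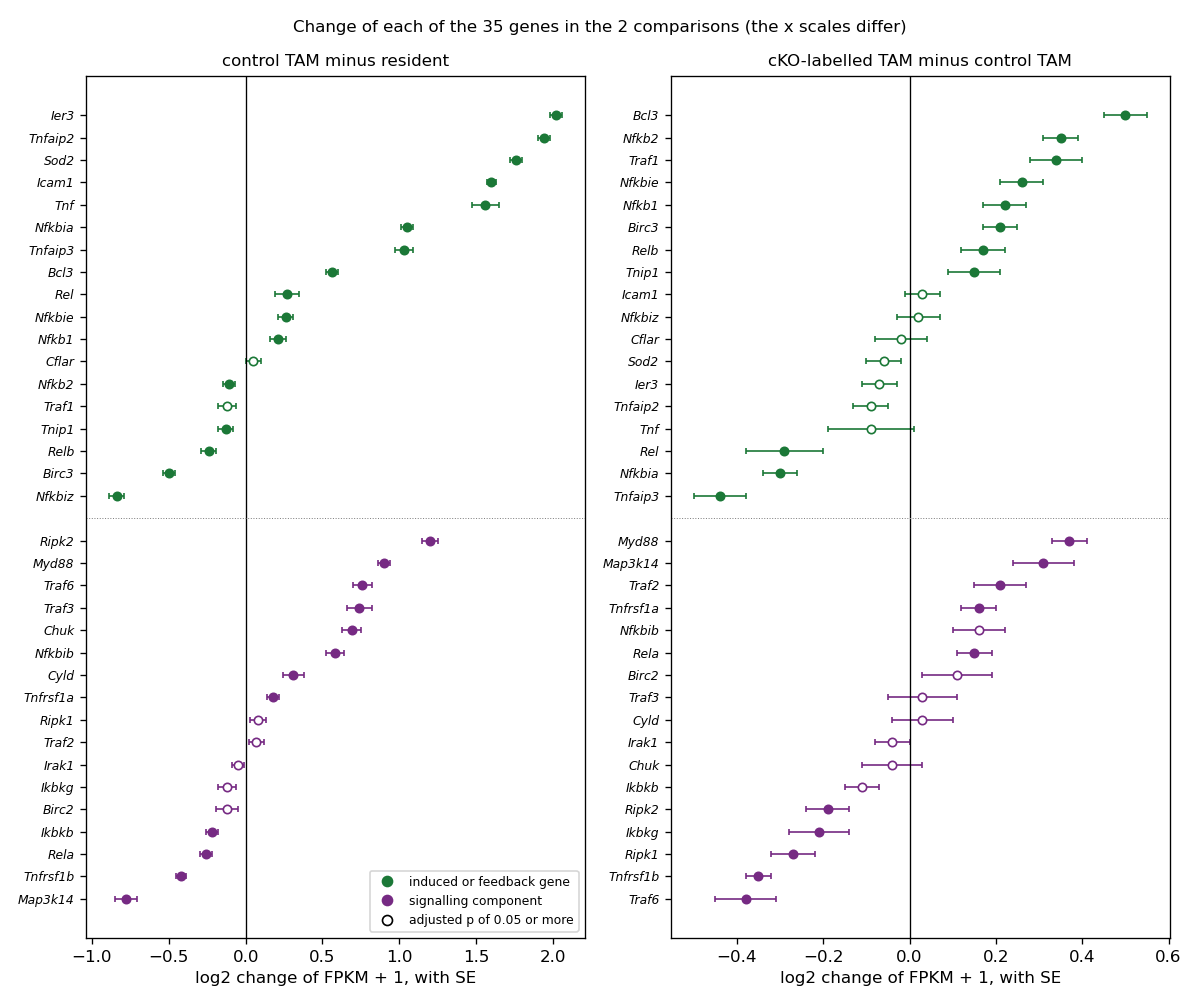
Log2 change on the log2(FPKM + 1) scale, with SE, of each of the 35 genes in control TAM minus resident macrophages (left) and cKO-labelled minus control TAM (right); open points did not pass an adjusted p of 0.05, and the x scales differ. On the left the induced genes reach 2.02 (Ier3) and the signalling components 1.20 (Ripk2); on the right all changes lie between -0.44 (Tnfaip3) and 0.50 (Bcl3).

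The early genes that tissue dissociation is known to induce also differed between these sorts. Of 23 such genes, 16 rose and 5 fell in control TAM, where 77.1% of all genes tested passed. The 23 genes summed to 3500.5 to 3580.4 FPKM in control TAM, against 2425 to 2591 in resident macrophages. Socs3, an inhibitor of cytokine signalling, stood at 256 ± 8.11 and 70.4 ± 2.01 FPKM and the AP-1 subunit gene Junb at 784 ± 14.2 and 371 ± 19.7. Jun, another AP-1 subunit gene, stood at 152 ± 2.10 and 77.0 ± 2.64 FPKM and the chaperonin gene Hspe1 at 22.4 ± 1.90 and 11.0 ± 1.38. Several of the induced genes, Nfkbia and Ier3 among them, are known to respond to dissociation as well. The part of dissociation in their levels was not tested.

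The second comparison asked what differs between tumour macrophages of mice with and without Cre aimed at the receptor gene. The presence of Cre and the targeting of Ahr cannot be told apart here. In cKO-labelled TAM the effector genes differed from control TAM by log2 changes of -0.09 to 0.03, while the regulators around the NF-kB dimers moved in both directions by less than 2-fold. Bcl3, Nfkb2, Traf1, Map3k14 and Myd88 were higher, and Tnfaip3, Nfkbia, Traf6 and Tnfrsf1b lower, each without overlap of the groups, as in 24 of the 35 genes and in 51.4% of all genes tested. Of the 18 induced or feedback genes, 8 rose and 3 fell, and of the 17 signalling components 5 rose and 5 fell, with a median log2 change of 0.03 in both classes. Of all genes tested, 39.6% passed the threshold, with a median change of 0.01. The 21 of 35 genes that passed make 60.0%. The share over all genes depends on their level. Among genes with FPKM of at least 5 in 3 libraries, 3629 of 7582 passed, and of the 33 members tested there 14 rose and 7 fell. Whether the share of the 35 genes exceeds that of genes at a like level was not tested. On rescaling, the median of all genes moved by -0.07, and the split of the 35 genes, 13 higher and 8 lower, became 7 higher and 13 lower, with medians of -0.05 in the induced or feedback genes and -0.04 in the signalling components and no called gene turning its direction.

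None of the 5 effector and survival genes passed. Ier3 stood at 166, 177 and 168 FPKM in cKO-labelled TAM, against 179.7, 183 and 175 in control TAM (-0.07 ± 0.04, adjusted p = 0.219). Icam1 stood at 167, 166 and 160.0 FPKM in cKO-labelled TAM, against 159, 164 and 159 in control TAM (0.03 ± 0.04), and Sod2 at 70.0, 74.7 and 72.4, against 76.5, 74.3 and 74.9 (-0.06 ± 0.04). In these 3 genes the groups overlapped. Tnfaip2 was at 99.8, 95.5 and 96.1 FPKM in cKO-labelled TAM, against 105, 106 and 101 in control TAM (-0.09 ± 0.04, adjusted p = 0.0660), without overlap. It passed as lower with only these 2 groups fitted, without resident replicate 1, by voom and under the 3 other scalings, and Ier3 and Sod2 passed as lower on rescaling. Tnf stood at 7.56, 8.90 and 8.38 FPKM in cKO-labelled TAM, against 8.11, 9.64 and 8.82 in control TAM (-0.09 ± 0.10, adjusted p = 0.523).

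The IkB family and the inhibitors were divided here too, with Nfkbia and Tnfaip3 lower and Bcl3 and Nfkbie higher. Nfkbia fell to 409, 396 and 384 FPKM in cKO-labelled TAM, against 480.5, 500.2 and 485 in control TAM (-0.30 ± 0.04, adjusted p = 2.23e-05). Tnfaip3 fell to 16.0, 13.9 and 14.8 FPKM in cKO-labelled TAM, against 19.9, 20.8 and 20.7 in control TAM (-0.44 ± 0.06, adjusted p = 6.88e-05), the largest fall of the 35 genes on this scale. In both genes the cKO-labelled libraries lay between those of control TAM and those of resident macrophages. Bcl3 (ENSMUSG00000053175, chromosome 7, 19808462 to 19822770, minus strand) rose to 97.2, 93.6 and 90.0 FPKM in cKO-labelled TAM, against 64.2, 68.9 and 64.9 in control TAM. Its mean was 1.42-fold that of control TAM (0.50 ± 0.05, adjusted p = 9.06e-07), the largest rise of the set. Nfkbie rose to 44.6 ± 1.26 FPKM in cKO-labelled TAM, against 37.2 ± 1.91 in control TAM (0.26 ± 0.05, adjusted p = 0.00123). Nfkbiz stood at 19.0 ± 0.697 and 18.6 ± 0.929 FPKM (adjusted p = 0.718) and Cyld, a deubiquitinase gene, at 6.06 ± 0.0615 and 5.92 ± 0.171 (adjusted p = 0.759).

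All 5 subunit genes passed, 4 as higher. Nfkb2 (ENSMUSG00000025225, chromosome 19, 46304320 to 46312385, plus strand) rose to 49.0, 46.3 and 45.7 FPKM in cKO-labelled TAM, against 35.4, 37.3 and 36.9 in control TAM (0.35 ± 0.04, adjusted p = 1.42e-05), and the lowest cKO-labelled library lay above the highest of any other group. Nfkb1 rose to 18.6, 19.8 and 18.3 FPKM in cKO-labelled TAM, against 16.0, 16.2 and 16.3 in control TAM (0.22 ± 0.05, adjusted p = 0.00577), with the call lost on rescaling (0.14, adjusted p = 0.0514). Rela rose to 72.8, 78.3 and 75.0 FPKM in cKO-labelled TAM, against 64.6, 68.8 and 69.9 in control TAM (0.15 ± 0.04, adjusted p = 0.0120). The call of Rela was lost on rescaling and without control TAM replicate 1 or cKO-labelled TAM replicate 2. Relb, at 26.4 ± 1.20 FPKM in cKO-labelled TAM and 23.4 ± 1.40 in control TAM (adjusted p = 0.0211), lost its call on rescaling, under quantile normalization and without control TAM replicate 3 or cKO-labelled TAM replicate 1. Rel fell to 1.79 ± 0.223 FPKM in cKO-labelled TAM, against 2.40 ± 0.185 in control TAM (-0.29 ± 0.09, adjusted p = 0.0165), again without a call when control TAM replicate 3 or cKO-labelled TAM replicate 1 was left out.

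Receptors and adaptors moved in both directions. Tnfrsf1b fell to 89.5, 92.8 and 90.2 FPKM in cKO-labelled TAM, against 115, 119.7 and 114 in control TAM (-0.35 ± 0.03, adjusted p = 1.12e-06). Tnfrsf1a rose to 132 ± 3.39 FPKM, against 118 ± 2.71 (0.16 ± 0.04, a call lost on rescaling). Tnfrsf1b was therefore highest in resident macrophages and lowest in cKO-labelled TAM, with no overlap between any groups. Myd88 (ENSMUSG00000032508, chromosome 9, 119335934 to 119341411, minus strand) rose to 131, 135 and 133 FPKM in cKO-labelled TAM, against 100.4, 109 and 101 in control TAM (0.37 ± 0.04, adjusted p = 2.67e-06), while Traf6 fell to 5.98, 6.12 and 6.28 FPKM, against 8.16, 7.88 and 8.84 (-0.38 ± 0.07, adjusted p = 4.77e-04). The adaptor and its ligase thus moved in opposite directions. Traf1, an NF-kB-induced adaptor of the second TNF receptor, rose to 12.5, 13.0 and 12.8 FPKM in cKO-labelled TAM, against 9.68, 10.5 and 9.48 in control TAM (0.34 ± 0.06), and Map3k14 to 7.50, 6.72 and 6.78, against 5.09, 5.91 and 5.36 (0.31 ± 0.07). Both were above every control TAM library. Birc3 and Traf2 each had a change of 0.21, which on rescaling was 0.13 for Birc3 and lost its call for Traf2, and Ripk1 fell by 0.27. Ripk2 fell to 24.5, 25.7 and 25.9 FPKM in cKO-labelled TAM, against 29.6, 28.7 and 28.8 in control TAM (-0.19 ± 0.05, adjusted p = 0.00776). Ikbkg fell by 0.21 (adjusted p = 0.0179), a call lost without control TAM replicate 1 or cKO-labelled TAM replicate 2 or 3, and Tnip1 rose by 0.15 (adjusted p = 0.0401), a call lost under all 3 other scalings, without the variance trend and without control TAM replicate 2 or 3 or cKO-labelled TAM replicate 1 or 2. Chuk, Ikbkb, Irak1, Birc2, Traf3 and Nfkbib did not pass, though Ikbkb (-0.11, adjusted p = 0.064) and Nfkbib (0.16, adjusted p = 0.052) lay near the threshold and passed under some alternatives.

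**Figure D3:**
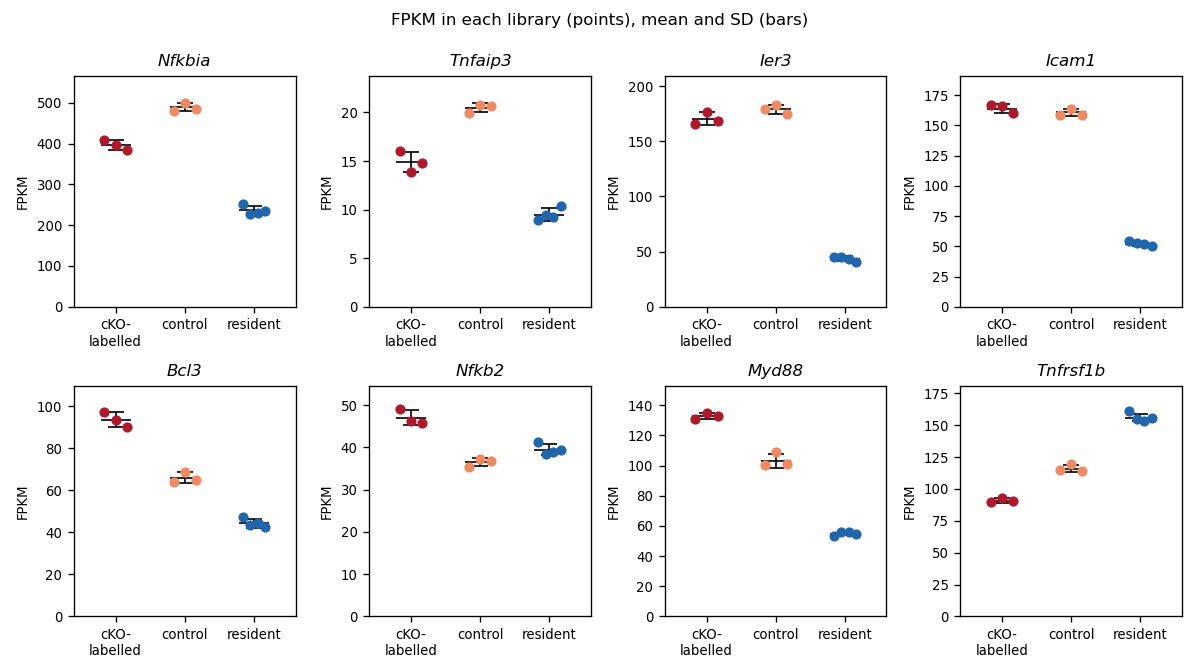
FPKM of 8 of the genes in each library (points) with the group mean and SD (bars), for cKO-labelled TAM, control TAM and resident macrophages from left to right, on axes that start at 0. Nfkbia and Tnfaip3 are intermediate in cKO-labelled TAM, Ier3 and Icam1 overlap between the tumour groups and are low in resident macrophages, Bcl3 and Myd88 are highest in cKO-labelled TAM, Nfkb2 is at 49.0, 46.3 and 45.7 there, and Tnfrsf1b is lowest there.

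Set against resident macrophages, cKO-labelled TAM too had high effector genes; the resident libraries are the same as in the first comparison. Of the 35 genes 21 rose and 8 fell, where 77.4% of all genes passed. The medians were 0.48 in the 18 induced or feedback genes, of which 12 rose and 2 fell, and 0.28 in the 17 signalling components, of which 9 rose and 6 fell. The second median was 0.13 over genes with FPKM of at least 5 and 0.41 on rescaling. Rescaling moved the median of all genes by 0.11, and 23 of the 35 then rose and 6 fell. Ier3 was 3.92-fold higher (log2 change 1.95 ± 0.04) and Tnfaip2 3.70-fold (1.85 ± 0.04). Bcl3 was at 93.6 ± 3.58 FPKM in cKO-labelled TAM and 44.4 ± 2.18 in resident macrophages (1.06 ± 0.04), while the change of Nfkbia was 0.75 ± 0.04 and that of Tnfaip3 0.60 ± 0.06. Traf3 (0.77) reached 1.18 by voom. Traf1 rose by 0.22 and, on rescaling, by 0.34, while Birc3, Ikbkb and Ikbkg had changes of -0.29, -0.32 and -0.34, which became -0.16, -0.19 and -0.22. Nfkb2 rose here by 0.24 ± 0.04 (adjusted p = 5.52e-05), and by 0.37 on rescaling. Rela, at 75.4 ± 2.77 and 81.1 ± 2.82 FPKM, had a change of -0.10 ± 0.04 (adjusted p = 0.0276), which was 0.03 (adjusted p = 0.504) on rescaling and -0.20 under quantile normalization, and which lost its call without the variance trend and without resident replicate 1 or cKO-labelled TAM replicate 1 or 3.

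Ratios within a library do not depend on a scaling factor common to all its genes. Quantile normalization can change them, and the ratios below are of the deposited FPKM. The ratio of Nfkbia to Rela was 5.62, 5.05 and 5.11 in cKO-labelled TAM, 7.44, 7.27 and 6.94 in control TAM, and 2.96, 2.81, 2.88 and 2.98 in resident macrophages. The ratio of Tnfrsf1b to Tnfrsf1a was 0.689, 0.683 and 0.694 in cKO-labelled TAM, 0.987, 1.02 and 0.937 in control TAM, and 1.50, 1.45, 1.58 and 1.46 in resident macrophages. The groups did not overlap in either ratio, whereas Relb to Rela averaged 0.351 ± 0.0265, 0.347 ± 0.0347 and 0.343 ± 0.00469 in the same order of groups. The ratio of Nfkb2 to Nfkb1 averaged 2.48 ± 0.149, 2.26 ± 0.0369 and 2.87 ± 0.150. These 4 ratios were chosen after the levels had been seen. Over 8 two-sided exact permutation tests, the ratios of Nfkbia to Rela, Tnfrsf1b to Tnfrsf1a and Nfkb2 to Nfkb1 each gave p = 0.0286 (adjusted 0.0763) for control TAM against resident macrophages and p = 0.1 (adjusted 0.1333) for cKO-labelled against control TAM. Those are the smallest values these group sizes allow, so the second comparison could not have passed a threshold of 0.05. Once adjusted over the 8 tests, no ratio in the first comparison could have passed it either. The adjusted values therefore cannot decide whether a ratio differs. The ratio of Relb to Rela gave exact p = 0.7429 and 1.0000 (adjusted 0.8490 and 1.0000).

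**Figure D4:**
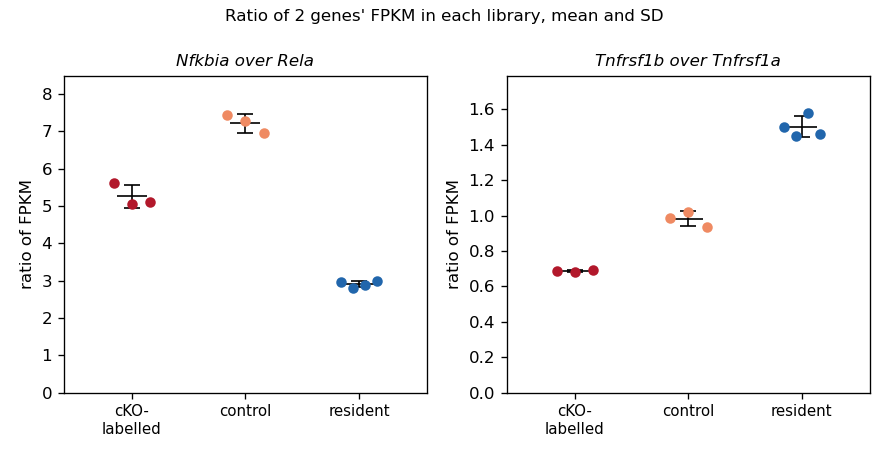
Ratio of the FPKM of Nfkbia to Rela (left) and of Tnfrsf1b to Tnfrsf1a (right) in each library (points), with the group mean and SD (bars), for cKO-labelled TAM, control TAM and resident macrophages. The first averages 5.26, 7.22 and 2.91 and the second 0.689, 0.983 and 1.50 in that order.

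A wider list of 62 other genes of the pathway (adaptors, ubiquitin enzymes, receptors, further brakes and survival genes), of which 60 were tested, moved in both directions. In control TAM against resident macrophages 28 rose and 16 fell, with a median of 0.09, where 77.1% of all genes tested passed. The necroptosis kinase gene Ripk3 rose to 95.2 ± 2.49 FPKM in control TAM, against 21.3 ± 1.94 in resident macrophages, and its substrate gene Mlkl to 44.6 ± 2.06, against 8.29 ± 0.615. The survival gene Bcl2a1a, whose reads may be shared with near-identical copies, rose to 31.9 ± 2.92, against 6.91 ± 0.393. Tnfsf13b, the B cell survival cytokine gene, fell to 1.57 ± 0.0846 FPKM in control TAM, against 14.0 ± 0.680 in resident macrophages. In cKO-labelled against control TAM 20 rose and 7 fell, with a median of 0.04, where 39.6% of all genes tested passed. Zc3h12a, whose product destroys inflammatory mRNAs, rose to 6.20 ± 0.477 FPKM in cKO-labelled TAM, against 3.85 ± 0.619 in control TAM (0.58 ± 0.10), and the deubiquitinase gene Usp21 to 25.0 ± 0.305, against 17.9 ± 0.619. Adam17, the protease that sheds TNF and its receptors, fell to 41.3 ± 1.08, against 55.6 ± 2.45 (-0.42 ± 0.05), and Mlkl to 32.2 ± 1.23, against 44.6 ± 2.06. In cKO-labelled TAM against resident macrophages 32 of the 60 rose and 15 fell, where 77.4% of all genes tested passed. Of the 23 dissociation genes 7 rose and 4 fell in cKO-labelled against control TAM, where 39.6% of all genes tested passed. Their summed levels of 3562 to 3742 and 3500.5 to 3580.4 FPKM overlapped. The heat-shock gene Dnajb1 stood at 43.7 ± 2.07 and 30.9 ± 1.04 FPKM and Ier2 at 318 ± 13.9 and 244 ± 4.71, with Egr1 at 82.6 ± 1.96 and 67.1 ± 1.11 and Jund at 48.4 ± 2.20 and 41.0 ± 3.40. Their part in the differences of Bcl3, Nfkb2 and the other members was not tested.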

How the data were processed

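RNA-seq of 10 libraries of sorted mouse macrophages was read from 1 table. Per the labels' protocols, a pair of RNA kits was in use (which library had which is not stated), cDNA came from SMART-Seq v4 and tagmentation from Nextera XT, so strand is not recorded. The authors deposited its values as FPKM. The submitters' processing notes list STAR, edgeR, mm10 and GRCm38, with no role given. How gene lengths and library scaling were set is not stated there. Of 316 genes without a symbol, 312 were named by identifier.

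Whole reads were recovered with the longest GENCODE M21 (GRCm38) transcript as gene length: 85.8% to 87.1% of values between 1 and 200 reads came out whole within 0.05. Between libraries of a group, the median squared difference was 1.78 to 3.05 times counting noise over 12 pairs. No pair thus looked like 1 library deposited in duplicate, and each library counted as 1 replicate; whether the spread is biological or technical is not shown by this. In R 4.3.3, limma 3.58.1 took log2(FPKM + 1) of the 11127 genes that reached an FPKM of 1 in 3 or more of the 10 libraries, with 3 group means, 7 residual degrees of freedom and a variance trend, and Benjamini-Hochberg adjustment over all genes. The fit was tested on simulated data. Alternatives were other pseudocounts, filters, scalings, group sets, variance priors, a replicate block, leaving out each library, and, chosen after seeing the data, voom on the recovered reads. Of the 35 genes, 10 share 71 to 531 exon bases with another annotated gene.

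The members and lists were chosen with earlier results of these data known. Values in every library are given for members with a called change of at least 2-fold in control TAM against resident macrophages, for the 8 largest called changes in cKO-labelled against control TAM, and for Nfkbia, Tnfaip3, Tnf, Rela and Nfkb1. Of the other pathway and the dissociation lists, up to 4 called genes per comparison with the largest change and a mean FPKM of at least 5 are named. The 2 most abundant genes of each cell type list qualified, of which those of the macrophage, acinar and neutrophil lists are given. Adgre1, Itgam, Ptprc, Amy2a5, Prg2, S100a8 and S100a9, and the sums without the most abundant gene, were picked after their values were seen. Promoter windows come from RefSeq tables of GRCm38.p6.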

Additional observations from a re-analysis of the deposited data

Results flagged for a closer look

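Among the 35 genes, 2 had a resident library that stood far from the other 3, by a gap that took up most of the group's range. Tnfrsf1a was at 97.0 FPKM in resident replicate 3, with the others all at 107 FPKM to 3 digits. Irak1 was at 50.3 FPKM in resident replicate 4, with the others between 46.6 and 47.0. Chance gives such a gap in about 1 in 20 groups of 4, so 2 of 35 is near that rate. Without resident replicate 3, the log2 change of Tnfrsf1a in control TAM against resident macrophages was 0.15 (adjusted p = 0.00121), and without resident replicate 4 that of Irak1 was -0.02 (adjusted p = 0.644).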

How the results depend on the processing

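Of the called changes, 23 of 28 in control TAM against resident macrophages, 13 of 21 in cKO-labelled against control TAM and 27 of 29 in cKO-labelled TAM against resident macrophages passed in the same direction under every alternative in which the gene was tested. Leaving out 1 library gave 27 to 29, 18 to 23 and 28 to 30 called genes in that order of comparisons, and a 2-fold limit gave 8, 0 and 8. Of the genes called with or without rescaling to a common total, it turned Irak1 (0.16), Nfkb2 (0.10) and Tnip1 (0.07) in the first comparison and Rela (0.03) in the third. Traf1 (0.07), Birc2 (0.07) and Ikbkg (0.06), called in neither, also turned sign in the first, as did Traf3, Nfkbiz, Cyld and Icam1 in the second and Birc2, Irak1, Rel and Relb in the third. The median change of the induced or feedback genes in the first comparison was 0.32 and 0.29 at pseudocounts of 0.1 and 0.5, 0.44 on rescaling, 0.23 under quantile normalization and 0.24 to 0.30 with 1 library left out. In the second it was -0.05 on rescaling and 0.01 to 0.05 with 1 library left out, and in the third 0.52 with FPKM of at least 5, 0.60 on rescaling, 0.43 under quantile normalization and 0.44 under median-of-ratios scaling. That of the signalling components was 0.28, -0.04 and 0.41 on rescaling in the 3 comparisons, and 0.13 with FPKM of at least 5 in the third, where 33 of the 35 genes were tested. Beyond that smaller number of genes, the cause of these shifts was not tested. The replicate numbers did not show pairing (correlations of deviations from -0.06 to 0.11, and 2 of 9 libraries closest to their own number), and with the replicate number as a block 28, 21 and 29 genes were called. Voom on the recovered reads, chosen after seeing the data, called 28, 24 and 30 of the 35 genes and 8512, 4791 and 8786 of all genes. Depth limits Tnf and Traf3 most, the genes with the fewest recovered reads (44 and 93 in the thinnest library).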
